A study of Mus musculus with 11 samples.

Results

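The 10 genes described here mark blood endothelial cells or belong to the angiopoietin and apelin systems: Pecam1, Cdh5, Tek, Tie1, Angpt1, Angpt2, Apln, Aplnr, Vwf and Plvap. The rule that selects them is this list of symbols, with no threshold on a measured value, and each symbol matched 1 of the 25006 Ensembl genes counted. All 10 passed the filter on low counts, as did 14779 genes in all. RNA was taken from the left ventricle of 11 mice, with 1 mRNA library per mouse. In MI mice a left coronary artery had been ligated permanently and the infarcted tissue was collected 9 days later, whereas in naive mice a comparable piece of unligated ventricle was taken. Control mice carried the floxed Vegfc alleles alone (genotype label Vegfc fl/fl, naive n = 2, MI n = 3). LysMCre mice carried the same alleles with LysMCre (Vegfc fl/fl ; LysMCre, naive n = 3, MI n = 3), a Cre inserted in the lysozyme gene Lyz2 that acts in myeloid cells and not in endothelium, so the floxed alleles are common to all 4 groups. The collection protocol and the study's methods instead name the controls as LysMCre mice. The legend to the study's sequencing data names C57BL/6 or Vegfc fl/fl mice beside Vegfc fl/fl LysMCre mice without saying which library is which, and the age and sex of the mice are not given in the sources used here.

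Endothelial cells line every vessel and are held together by junctional proteins such as PECAM1 and VE-cadherin, the product of Cdh5. The receptor TIE2, encoded by Tek, is kept active by angiopoietin 1, which supporting cells around the vessel secrete, while angiopoietin 2 from activated endothelium can oppose it and TIE1 modulates the signal. Apelin and its receptor act in sprouting and growing vessels, von Willebrand factor is stored in endothelium and platelets for hemostasis, and PLVAP forms the diaphragms of fenestrae and caveolae.

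Total counts were 10824989 to 14585642 in the 5 naive libraries and 14580756 to 26782728 in the 6 MI libraries, and 3 counts corresponded to 0.101 to 0.363 CPM (counts scaled to library size with edgeR's TMM factors). The fewest counts of any member in any library were 80, for Apln. Whole-tissue Vegfc did not separate the genotypes (log2 fold change after MI -0.27, edgeR, Benjamini-Hochberg adjusted p = 0.824). Lyz2, the gene into which the Cre was inserted, was at 2121 to 5380 CPM in the control libraries and at 12.4 to 1392 CPM in 5 of the 6 LysMCre libraries. It was at 4565 CPM in the library labelled naive LysMCre M149, which goes against its label. Differences of the members that involve this library are therefore also given without it, except MI against naive for Tek, Tie1, Angpt1 and Aplnr. The ratios, correlations and gene lists keep this library. Xist ranged from 0.624 to 11.8 CPM among naive hearts and from 188 to 403 CPM among MI hearts, with the Y-linked genes high where Xist was low, so that the sex of the mice and MI cannot be told apart. The markers of cardiomyocytes fell in sum from 27878 to 35070 CPM in naive libraries to 1335 to 8513 CPM in MI libraries. In bulk tissue, fewer cells of a type and less RNA per cell cannot be told apart.

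In naive control hearts the members spanned more than an order of magnitude when levels were divided by exon length. Pecam1 was highest, at 44.7 ± 2.11 CPM per kb (SD, n = 2), followed by Cdh5 at 34.5 ± 1.44 CPM per kb. The receptors Tek (26.3 ± 0.415 CPM per kb), Tie1 (23.7 ± 3.88 CPM per kb) and Aplnr (22.7 ± 2.79 CPM per kb) came next, and neighbours among these 3 overlapped between libraries. Plvap was the sixth, at 8.51 ± 0.479 CPM per kb, and the ligands Angpt1 (6.34 ± 0.198 CPM per kb), Apln (4.56 ± 0.635 CPM per kb) and Angpt2 (3.35 ± 0.187 CPM per kb) were lower. Vwf, at 3.31 ± 0.231 CPM per kb, was lowest and overlapped with Angpt2. After MI Plvap stood higher in this order. In MI control hearts it was at rank 1, with 30.02 ± 2.31 CPM per kb (SD, n = 3), overlapping Pecam1 at 29.7 ± 11.7 CPM per kb. In MI LysMCre hearts Plvap was at rank 2, with 37.1 ± 6.52 CPM per kb, overlapping Pecam1 at 42.8 ± 3.10 CPM per kb.

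**Figure D1:**
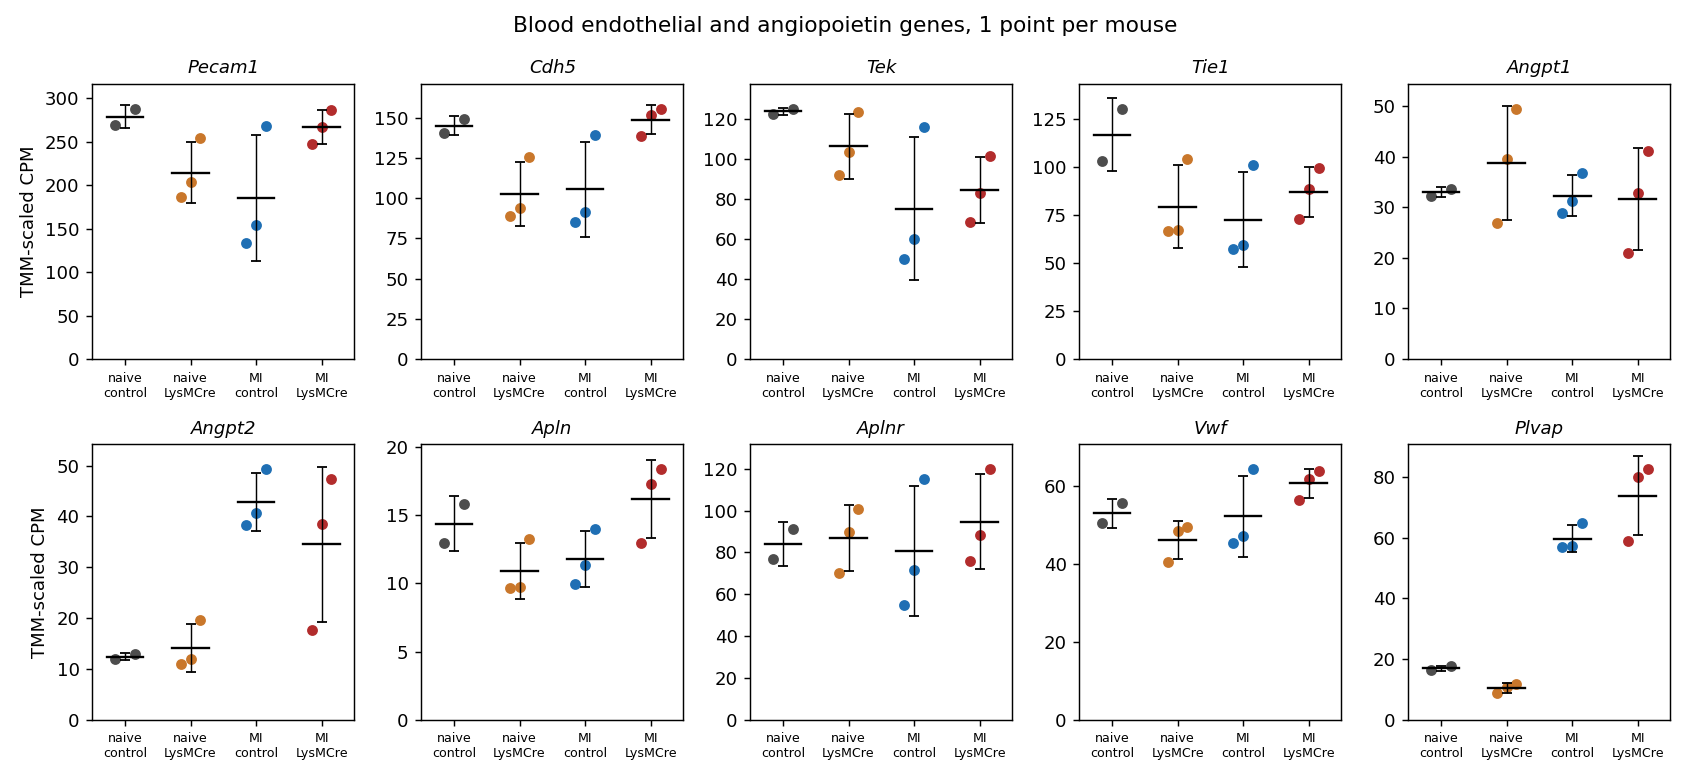
TMM-scaled CPM (vertical axes, each starting at 0) of the 10 genes in the 4 groups, with 1 point per mouse, a bar at the group mean and error bars of 1 SD. Naive hearts had 8.79 to 17.6 CPM of Plvap and MI hearts 56.8 to 82.4 CPM, and MI control library M006 was the highest of its group in 8 of the other 9 genes.

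Promoter sequence was available for 3 of the 10 members in the RefSeq table used (GRCm38.p6). The windows of 250 bases upstream of the start site are printed for Tek, whose level followed those of the other junctional and receptor genes from mouse to mouse, and for Apln, the only X-linked member. The Tek window lies on chromosome 4 (chr4:94739039-94739288, plus strand) and the Apln window on chromosome X (chrX:48034854-48035103, minus strand). Each is written 5′ to 3′ along the gene. Capitals mark the letters AGGAAG on either strand, 1 form of the GGAA core to which ETS factors of endothelium bind. The Apln window held 1 match and the Tek window 0, and 29.5% of 32851 windows of the same length held a match. Other forms of the core were not searched. The Tie1 window also held 1 match and is not printed, since 212 of its bases lie within the annotated gene.
Tek: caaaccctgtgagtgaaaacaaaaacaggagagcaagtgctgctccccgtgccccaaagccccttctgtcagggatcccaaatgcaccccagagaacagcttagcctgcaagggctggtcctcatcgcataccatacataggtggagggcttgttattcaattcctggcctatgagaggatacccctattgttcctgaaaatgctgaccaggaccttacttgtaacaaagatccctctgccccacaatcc
Apln: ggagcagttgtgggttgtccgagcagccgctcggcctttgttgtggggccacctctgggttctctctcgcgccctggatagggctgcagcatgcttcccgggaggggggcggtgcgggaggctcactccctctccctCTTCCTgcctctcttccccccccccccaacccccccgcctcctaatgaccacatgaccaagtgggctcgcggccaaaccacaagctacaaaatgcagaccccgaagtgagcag

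MI was compared with the naive state in control mice first, to ask how the vascular genes stood in the infarct of mice with intact Vegfc. Plvap and Angpt2 rose, 3.53-fold and 3.46-fold. The other 8 members did not pass the test. Among these, the junctional genes Pecam1 and Cdh5 and the receptors Tek and Tie1 had lower values in every MI library than in either naive library, with log2 fold changes of -0.46 to -0.72. Thus 2 of 10 members were called, both higher, where 50.4% of all genes tested were called, 26.3% higher and 24.1% lower. The groups did not overlap for 6 members, 2 above and 4 below, against 72.1% of all genes tested (39.1% above and 33% below). The members had a median log2 fold change of -0.18, and all genes tested had one of 0.13.

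Plvap (ENSMUSG00000034845, chromosome 8 of GRCm38, 71497765 to 71511752, minus strand) was at 16.2 and 17.6 CPM in naive control M44 and M45. After MI it was at 56.8, 57.2 and 64.9 CPM in M006, M38 and M40. The groups stood far apart, with little spread within either. The log2 fold change was 1.82 (SE 0.19, adjusted p = 1.76e-04, edgeR quasi-likelihood test with Benjamini-Hochberg adjustment). The 3′ end of Plvap overlaps Gtpbp3 on the other strand, a gene that was at 17.8 to 22.6 CPM in all libraries and was not called.

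Angpt2 (ENSMUSG00000031465, chromosome 8, 18690263 to 18741562, minus strand) was at 12.8 and 11.9 CPM in naive control M44 and M45 and at 49.3, 38.4 and 40.7 CPM in MI control M006, M38 and M40. No MI library came near the naive range. The log2 fold change was 1.79 (SE 0.39, adjusted p = 0.00409, edgeR quasi-likelihood test with Benjamini-Hochberg adjustment). Angpt2 lies within Mcph1, a gene of the opposite strand at 6.15 to 10.99 CPM that was not called, and the strand setting of the counting is not given in the sources used here.

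Angpt1 (ENSMUSG00000022309, chromosome 15), the activating ligand of TIE2, had 33.7 and 32.3 CPM in naive control hearts and 28.9, 31.2 and 36.9 CPM after MI, with overlapping groups. Its log2 fold change was -0.029, with a 95% interval from -0.66 to 0.61. The ratio of Angpt2 to Angpt1 per exon length was thus 0.519 and 0.537 in naive control hearts and 1.56 to 2.40 in MI control hearts, so that Angpt2 was the lower of the pair before and the higher after MI. Angpt1 remained uncalled in both genotypes.

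The receptor genes moved the other way in value without passing the test. Tek (ENSMUSG00000006386, chromosome 4) was at 122.5 and 125.2 CPM in naive control hearts and at 116.0, 59.8 and 49.9 CPM in MI control M006, M38 and M40. Tie1 (ENSMUSG00000033191, chromosome 4) was at 130.2 and 103.2 CPM before and at 100.9, 59.4 and 57.4 CPM after MI. In both genes M006 lay close to the naive libraries and the other 2 MI libraries lay far below. The log2 fold changes were -0.72 for Tek (SE 0.31, adjusted p = 0.0782) and -0.69 for Tie1 (SE 0.28, adjusted p = 0.0633, both edgeR quasi-likelihood with Benjamini-Hochberg adjustment).

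Pecam1 (ENSMUSG00000020717, chromosome 11), which is also carried by platelets and leukocytes, was at 288.0 and 269.4 CPM in naive control hearts and at 268.6, 153.9 and 133.1 CPM in MI control M006, M38 and M40. Cdh5 (ENSMUSG00000031871, chromosome 8), restricted to endothelium, was at 149.4 and 140.8 CPM before and at 139.5, 91.7 and 85.5 CPM after MI. Library M006 again stood beside the naive hearts. Log2 fold changes were -0.59 (SE 0.27, adjusted p = 0.0910) and -0.46 (SE 0.22, adjusted p = 0.105, both by edgeR with Benjamini-Hochberg adjustment). Without M006 the edgeR test with the same adjustment called all 4 genes lower, with log2 fold changes of -0.96 for Pecam1, -0.71 for Cdh5, -1.17 for Tek and -1.0004 for Tie1, and 6 members in all. M006 had the highest summed CPM of its group for the pan-endothelial markers below (1919, against 1118 and 1261) and for the capillary markers (655, against 207 and 473). The part of this in the result was not tested.

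The apelin pair and Vwf had overlapping groups in control mice. Apln (ENSMUSG00000037010, chromosome X) was at 9.94 to 14.0 CPM after MI and 12.96 and 15.8 CPM before, with a log2 fold change of -0.29 (SE 0.23). Aplnr (ENSMUSG00000044338, chromosome 2) was at 55.0 to 115 CPM after MI and at 76.7 and 91.3 CPM before, with a log2 fold change of -0.060 (SE 0.30). Vwf (ENSMUSG00000001930, chromosome 6) was at 45.3 to 64.3 CPM after and 50.5 and 55.7 CPM before, with a log2 fold change of -0.024 (SE 0.17). These 3 values and that of Angpt1 turned positive when counts were scaled to total counts in place of TMM, a choice that moved the median log2 fold change of all genes by 0.45 in control mice and 0.50 in LysMCre mice. Under that scaling the values of Pecam1, Cdh5, Tek and Tie1 stayed below 0, at -0.14, -0.012, -0.27 and -0.24, and Plvap and Angpt2 were called higher as before.

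**Figure D2:**
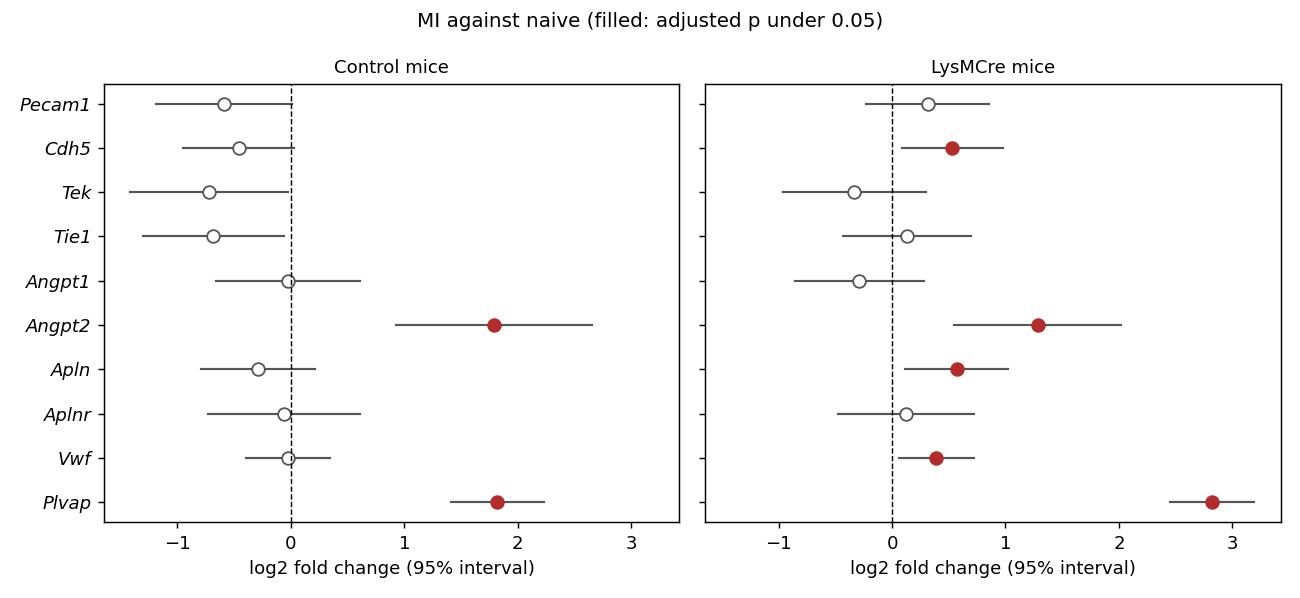
Log2 fold change of MI against naive hearts (horizontal axis) for the 10 genes in control mice and in LysMCre mice, with 95% intervals and filled points where the adjusted p was under 0.05. Plvap and Angpt2 were called higher in both genotypes, and Cdh5, Apln and Vwf in LysMCre mice.

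In LysMCre mice the same comparison called 5 of 10 members, all higher, where 57.6% of all genes tested were called, 30% higher and 27.7% lower. It shares no library with the comparison in controls. The 2 are not independent tests, since all 11 libraries were in 1 fit with a shared estimate of the spread. Plvap rose 7.07-fold and Angpt2 2.43-fold, and Cdh5, Vwf and Apln rose by log2 fold changes of 0.39 to 0.57. Pecam1, Tek, Tie1, Angpt1 and Aplnr did not pass the test. The groups did not overlap for 3 members, all above, against 64.3% of all genes tested (33.6% above). Over the members the median log2 fold change was 0.35, and over all genes it was 0.097.

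Plvap was at 10.8, 11.9 and 8.79 CPM in naive LysMCre M149, M150 and M34 and at 58.9, 80.0 and 82.4 CPM in MI LysMCre M35, M900 and M913. Every MI library lay well above every naive one. Its log2 fold change was 2.82 (SE 0.17, adjusted p = 1.12e-05, edgeR quasi-likelihood test with Benjamini-Hochberg adjustment). Without the library labelled naive LysMCre M149 it was 2.84.

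Angpt2 was at 10.9, 11.98 and 19.6 CPM in naive LysMCre M149, M150 and M34 and at 17.7, 47.4 and 38.6 CPM in MI LysMCre M35, M900 and M913. The groups overlapped, since M35 lay below the highest naive library. The log2 fold change was 1.28 (SE 0.33, adjusted p = 0.00781, edgeR with Benjamini-Hochberg adjustment), and 1.12 without M149. M35 also had the lowest Angpt1, at 21.04 CPM beside 41.1 and 32.8 CPM in M900 and M913, and the largest cardiomyocyte marker sum of the MI libraries, at 8513 CPM. Within M35 the ratio of Angpt2 to Angpt1 was 1.19, still above the 0.341 to 0.698 of the naive LysMCre libraries, and it was 1.63 and 1.66 in M900 and M913. Per exon length, no naive library of either genotype reached a ratio of 1 and each MI library exceeded it. In M35 this rests on the division by exon length, since Angpt2 was below Angpt1 there in CPM (17.7 and 21.04).

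**Figure D3:**
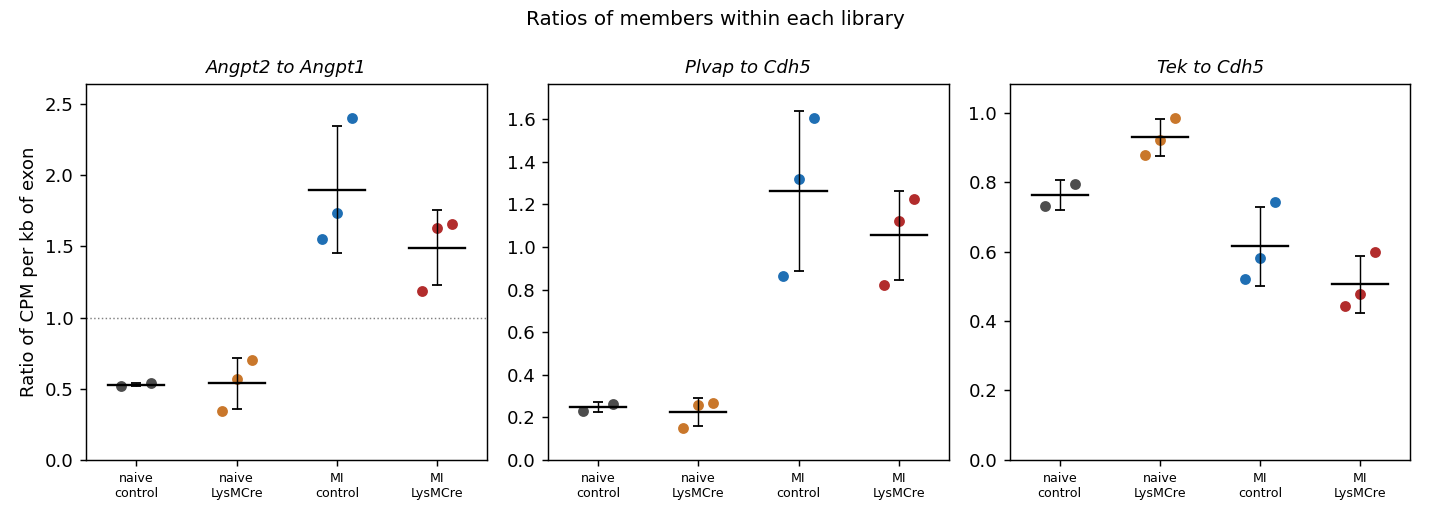
Ratios of CPM per kb of exon within each library (vertical axes from 0) for Angpt2 to Angpt1, Plvap to Cdh5 and Tek to Cdh5, with 1 point per mouse, a bar at the group mean and error bars of 1 SD. The dotted line marks equal levels. The Angpt2 to Angpt1 ratio was 0.341 to 0.698 in naive and 1.19 to 2.40 in MI libraries.

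Cdh5 was at 88.9, 93.7 and 125.6 CPM in naive LysMCre M149, M150 and M34 and at 151.9, 138.4 and 155.6 CPM in MI LysMCre M35, M900 and M913. The groups did not overlap. The log2 fold change was 0.53 (SE 0.20, adjusted p = 0.0412 by edgeR with Benjamini-Hochberg adjustment), and without M149 it was 0.44 and no longer passed (adjusted p = 0.121 by the same test). Vwf was at 48.5, 40.7 and 49.6 CPM before and at 61.9, 56.5 and 63.8 CPM after MI, also without overlap, with a log2 fold change of 0.39 (SE 0.15, adjusted p = 0.0452 by edgeR with the same adjustment) that likewise lost its call without M149 (0.42, adjusted p = 0.0619). The platelet markers, which include other genes of the cells that store von Willebrand factor, summed to 136 to 152 CPM in naive LysMCre and 68.5 to 74.9 CPM in MI LysMCre libraries. Nearly all of this sum was Pf4, which was called lower. Of 6 platelet markers 4 were tested, with 1 called higher, Itga2b (1.89 to 3.91 CPM in LysMCre mice), and 1 lower in each genotype. The part of platelets in the Vwf value was not tested.

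Apln was at 13.2, 9.68 and 9.77 CPM in naive LysMCre M149, M150 and M34 and at 12.9, 17.3 and 18.3 CPM in MI LysMCre M35, M900 and M913. The ranges met at M149 and M35. The log2 fold change was 0.57 (SE 0.20, adjusted p = 0.0344 by edgeR with Benjamini-Hochberg adjustment) and 0.73 without M149. The call was lost in 5 of the 11 fits that left out 1 library, those without naive LysMCre M150 or M34, MI control M38, or MI LysMCre M900 or M913 (adjusted p up to 0.138 by edgeR with the same adjustment). Apln lies on the X chromosome, and the Xist difference between naive and MI libraries given above runs along this comparison. Its receptor Aplnr was at 70.1 to 101 CPM before and at 75.8 to 120 CPM after MI, with a log2 fold change of 0.12 (SE 0.27).

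The remaining members overlapped between naive and MI LysMCre hearts. Pecam1 was at 186.2, 203.1 and 254.4 CPM before and at 286.1, 247.5 and 266.6 CPM after MI. Its log2 fold change was 0.31 (SE 0.24), and 0.22 without M149. Tek was at 91.9 to 124 CPM before and 68.6 to 102 CPM after (-0.33, SE 0.28), a value that turned positive with total counts, and Tie1 at 66.6 to 104 CPM before and 73.1 to 99.4 CPM after (0.13, SE 0.25). Angpt1 was at 27.0 to 49.5 CPM before and 21.04 to 41.1 CPM after (-0.29, SE 0.26), and its sign also turned with total counts. The ratio of Tek to Cdh5 per exon length was 0.879 to 0.985 in naive and 0.442 to 0.598 in MI LysMCre libraries, so that the receptor and the junctional gene did not keep 1 proportion. In control mice this ratio was 0.731 and 0.793 before and 0.520 to 0.742 after MI.

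In each MI library Plvap stood at a higher ratio to Cdh5 than in any naive library. The ratio was 0.148 to 0.268 over the 5 naive libraries, 0.862 to 1.61 in MI control and 0.820 to 1.22 in MI LysMCre libraries. The Pecam1 to Cdh5 ratio varied far less, with group means of 1.16 to 1.41.

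Other genes of the same pathways and vessel types were set beside the members. Of 18 further pan-endothelial genes, 1 was called higher and 8 lower after MI in control mice (median log2 fold change -0.57), and 2 higher and 7 lower in LysMCre mice (median -0.54). The VEGF receptor genes Kdr (-1.67 and -1.19 in control and LysMCre mice) and Flt1 (-1.45 and -1.12) fell in both genotypes, while the transcription factor gene Erg rose (1.44 and 1.75). Under total counts the pan-endothelial medians were -0.12 and -0.049, with 2 higher and 2 lower in control and 5 higher and 2 lower in LysMCre mice. The 8 genes of heart capillary endothelium had a median of -2.28 in each genotype, and 7 were called lower in each. Among them Rgcc had log2 fold changes of -3.03 and -3.06, and Gpihbp1, which carries lipoprotein lipase to the capillary lumen, ones of -2.31 and -2.51. Their medians stayed at -1.83 and -1.78 under total counts. Plvap and Angpt2 therefore stood 2.39 and 2.36 above the pan-endothelial median in control mice and 3.36 and 1.83 above it in LysMCre mice, on the log2 scale.

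Of 8 arterial genes, 3 were called higher and 1 lower in control mice, and 5 higher and 0 lower in LysMCre mice. Those that rose included Gja5, a connexin gene of arterial endothelium that cardiomyocytes of the conduction system also use (1.89 and 1.64), and Fbln5, an elastic fibre gene that fibroblasts and smooth muscle also use (3.14 and 3.18). Hey1, also of the arterial list, went the other way in control mice, with means of 35.9 CPM in naive and 19.2 CPM in MI hearts. Of 6 venous genes, 1 was higher and 1 lower in control and 3 higher and 1 lower in LysMCre mice. The venular gene Ackr1 rose by log2 fold changes of 2.45 and 2.80 from a low level, 0.718 ± 0.246 CPM (SD, n = 2) in naive control and 3.97 ± 1.24 CPM (SD, n = 3) in MI control hearts. Lrg1 of the venous list stood at a higher level and fell in control mice, with means of 31.7 CPM in naive and 17.9 CPM in MI hearts. Of 9 angiogenic genes, 4 were higher and 3 lower in control and 5 higher and 2 lower in LysMCre mice, with the chemokine receptor gene Cxcr4 (1.90 and 2.18) and the basement membrane collagen gene Col4a2 (1.03 and 2.00) among those that rose and Pgf (-1.18 and -0.75) among those that fell. Of 4 endocardial genes, 1 was higher and 1 lower in control and 1 higher and 2 lower in LysMCre mice.

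Of 10 partners of the angiopoietin and Tie system, 6 were called higher and 1 lower in control mice, and 6 higher and 2 lower in LysMCre mice (median 0.73 and 0.72). Mmp14, a membrane protease that can shed TIE2, rose by log2 fold changes of 3.33 and 3.89. Dok2 was called lower in both genotypes, with log2 fold changes of -0.73 and -1.44. Which cells carried the partners called higher was not tested. The third angiopoietin gene, Angpt4, rose by 3.28 and 2.46 but stayed low, from 0.406 ± 0.195 CPM (SD, n = 2) to 3.998 ± 1.34 CPM (SD, n = 3) in control mice. Ptprb, the endothelial phosphatase that dephosphorylates TIE2, was called lower in LysMCre mice (-0.63, adjusted p = 0.0413 by edgeR with Benjamini-Hochberg adjustment) and had -0.44 (adjusted p = 0.184) in control mice. Among apelin partners, Apela was below the filter, and Mme, which encodes a peptidase able to cleave apelin, fell, with log2 fold changes of -1.79 and -2.18 in control and LysMCre mice.

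**Figure D4:**
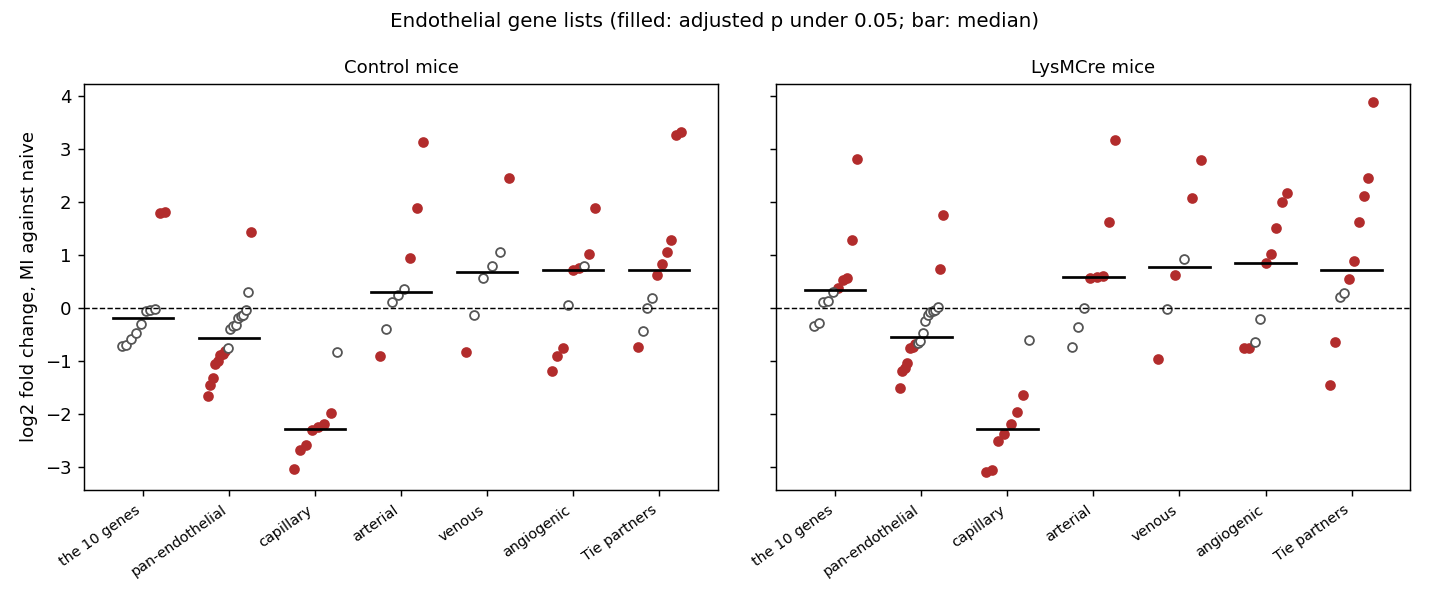
Log2 fold change of MI against naive hearts (vertical axis) for the 10 genes and for 6 lists of vascular genes, with 1 point per gene, filled where the adjusted p was under 0.05, and a bar at each list's median. The capillary list had a median of -2.28 in both genotypes, and the 10 genes had medians of -0.18 in control and 0.35 in LysMCre mice.

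Markers of other cells that can carry these transcripts moved along with MI. All 5 cardiomyocyte markers were called lower in both genotypes. The fibroblast markers, with 3 of 5 higher in control and 4 of 5 higher in LysMCre mice, summed to 3425 to 4677 CPM in naive and 13578 to 19074 CPM in MI libraries. The macrophage markers, with 3 of 5 higher in each genotype, summed to 799 to 1452 CPM in naive and 1288 to 2843 CPM in MI libraries. Of 9 mural markers, whose cells are a source of Angpt1, 5 were higher and 3 lower in each genotype, and they summed to 1821 to 2317 CPM in naive and 1665 to 3166 CPM in MI libraries. This sum joins opposite changes. In control mice the 3 lower were Rgs5 (means of 1367 CPM naive and 660 CPM after MI), Kcnj8 (223 and 53.9 CPM) and Abcc9 (245 and 51.1 CPM). The means of Acta2 (112 and 693 CPM) and Tagln (47.3 and 761 CPM) rose. The part of these shifts in the members' values was not tested. The lung epithelial markers summed to no more than 2.55 CPM in any library, with Sftpa1 at 0 in all 11. None of the endothelial markers listed was at 0 in any library.

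The genotypes were then compared within MI hearts, the comparison for which the study was designed. None of the members was called and none had groups apart (0 of 10). Across all genes tested 12.1% had groups apart, and 0 genes were called in edgeR after Benjamini-Hochberg adjustment, with 1173 (7.94%) at an unadjusted p under 0.05 and 58 called by DESeq2. The members' log2 fold changes ran from -0.30 for Angpt2 to 0.53 for Pecam1, with a median of 0.25, and 8 of 10 were positive. The median of all genes tested was -0.0073. For the 18 further pan-endothelial genes it was 0.029, with 10 positive and 8 negative. Marker sums of platelets and red cells lay apart between these groups, whereas those of cardiomyocytes, fibroblasts, mural cells and macrophages overlapped. The platelet markers, whose cells carry PECAM1, summed to 68.5 to 74.9 CPM in MI LysMCre and 46.5 to 63.7 CPM in MI control libraries, the red cell markers to 265 to 578 CPM and 682 to 1115 CPM, and the cardiomyocyte markers to 2155 to 8513 CPM and 1335 to 5420 CPM. No gene of any of these lists was called, and the part of these sums in the members' values was not tested. Pecam1 had an interval from -0.015 to 1.07 and Cdh5, at 0.49, one from 0.053 to 0.94. The 3 MI LysMCre libraries were close together in both genes, and in the MI control group M006 reached the LysMCre range while M38 and M40 lay below it. Without M006 the differences were 0.89 and 0.75, and neither was called (adjusted p = 0.542 for each by edgeR with Benjamini-Hochberg adjustment). At an unadjusted p under 0.05 stood 2 members, Cdh5 and Apln (0.46, SE 0.20), and adjusted p-values of the 10 by edgeR with Benjamini-Hochberg adjustment ran from 0.603 to 0.987. Plvap differed by 0.31 (interval -0.030 to 0.64) and Angpt1 by -0.030 (interval -0.59 to 0.53), so that changes of moderate size in either direction were not detectable for Angpt1 with 3 mice a group.

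In naive hearts none of the 10 members was called between the genotypes either (0% of all genes tested by edgeR with Benjamini-Hochberg adjustment, 499 genes or 3.38% at an unadjusted p under 0.05, and 14 by DESeq2). The groups did not overlap for 4 members, Pecam1, Cdh5, Vwf and Plvap, all lower in LysMCre hearts, where 22.4% of all genes tested had groups apart and 10.1% had LysMCre below. Plvap, with 16.2 and 17.6 CPM in the control and 8.79 to 11.9 CPM in the LysMCre libraries, had the largest difference in size among the members (-0.69, SE 0.18, unadjusted p = 0.00305, adjusted p = 1 by edgeR with Benjamini-Hochberg adjustment). It was -0.72 without the library labelled naive LysMCre M149 (adjusted p = 0.432 by the same test). Cdh5 differed by -0.50 (SE 0.22) and Tie1 by -0.56 (SE 0.28), whereas Angpt1 (0.23, SE 0.29), Angpt2 (0.20, SE 0.38) and Aplnr (0.049, SE 0.30) had positive values. Without M149 the differences were 0.43 for Angpt1 and 0.36 for Angpt2, -0.40 for Cdh5 and -0.45 for Tie1, and -0.28 for Pecam1, -0.12 for Tek, -0.56 for Apln, 0.025 for Aplnr and -0.23 for Vwf. None of the 10 members was called in that fit, in which edgeR with Benjamini-Hochberg adjustment called 17 of 14791 genes, 4 higher and 13 lower.

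**Figure D5:**
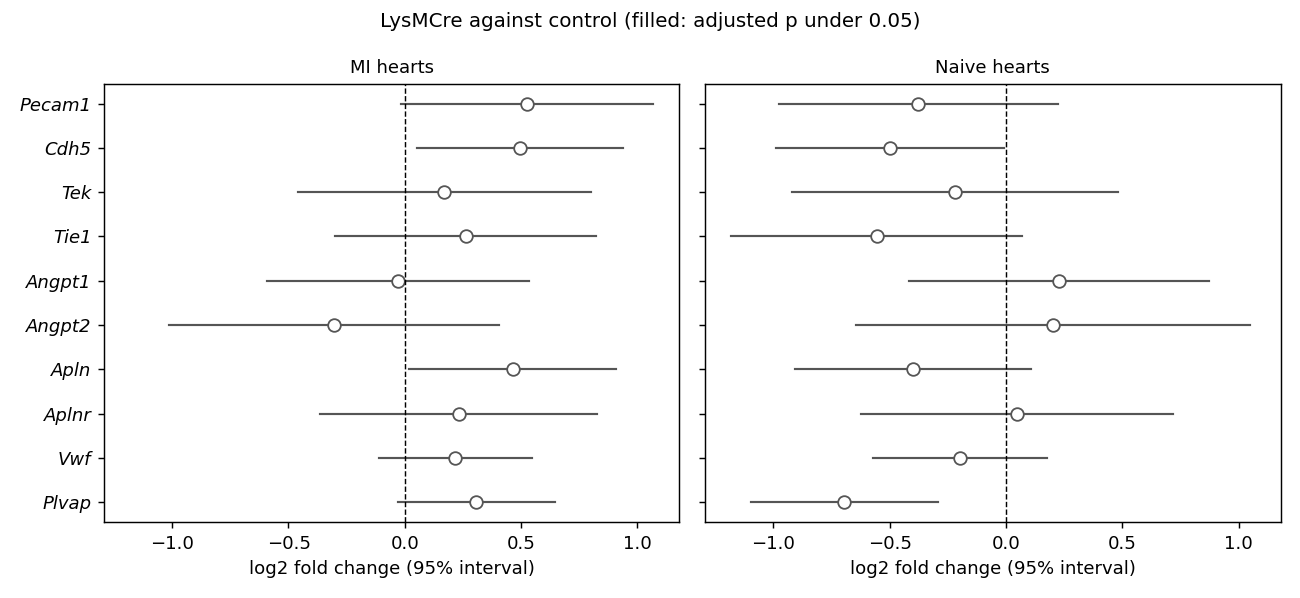
Log2 fold change of LysMCre against control mice (horizontal axis) for the 10 genes in MI hearts and in naive hearts, with 95% intervals. No point is filled, since no adjusted p was under 0.05.

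Whether MI acted differently by genotype was tested with an interaction term, and 0 of 10 members and 0% of all genes tested were called (edgeR with Benjamini-Hochberg adjustment, with 1226 genes or 8.3% at an unadjusted p under 0.05 and 53 called by DESeq2). At the unadjusted threshold stood 4 members. The interaction log2 fold changes were 1.002 for Plvap (SE 0.24), 0.99 for Cdh5 (SE 0.30), 0.90 for Pecam1 (SE 0.36) and 0.86 for Apln (SE 0.30). Adjusted p-values of the 10 members by edgeR with Benjamini-Hochberg adjustment ran from 0.534 to 0.923. For Plvap, the naive difference of -0.69 and the MI difference of 0.31 contributed in opposite directions. Without M149 the interaction values were 1.03 for Plvap, 0.90 for Cdh5, 0.81 for Pecam1 and 1.03 for Apln, those of the other members ran from -0.67 for Angpt2 to 0.71 for Tie1, and Angpt1 moved from -0.26 to -0.46. Again 0 members were called, and 1 gene of 14791 was (edgeR with Benjamini-Hochberg adjustment).

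Within groups the members fell into a set that varied together and several that did not. After subtraction of the group means, Pearson's r over the 11 libraries, which share their depth and scaling, was 0.97 for Pecam1 with Cdh5, 0.97 for Pecam1 with Tek and 0.96 for Cdh5 with Tie1. Aplnr (0.86) and Vwf (0.81) followed Pecam1 too. Plvap did not, with an r of -0.49 with Pecam1 and -0.74 with Aplnr, and Apln (0.26), Angpt2 (0.24) and Angpt1 (-0.22) were weakly related to Pecam1. These values are descriptions of 11 libraries. In M006, 8 of 10 members lay above their group mean (mean deviation of all 10, 0.34 on the log2 scale), while 0 of 10 did in M38.

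The genes outside the list whose within-group pattern was most like a member's, by Pearson's r over the 11 libraries, were Plcg1 (0.98) and Sparcl1 (0.97) for Pecam1, Plcg1 (0.97) and Efna1 (0.97) for Cdh5, and F11r (0.99) and Dock9 (0.98) for Tek. For Tie1 they were Ephb4 and Tnfsfm13 (0.97 each), for Aplnr Robo4 (0.96) and Fcer1a (0.95), and for Vwf Dusp3 (0.99) and Gstt2 (0.96). Plvap had Ublcp1 (0.98) and Uxs1 (0.96), and Angpt1 had Tmem150a and Bub1 (0.97 each). Angpt2 had 1700048O20Rik (0.98) and Pea15a (0.97), and Apln had Elavl1 (0.96) and Kcne3 (0.94). These genes were picked for the highest r among all tested genes outside the list. With 11 libraries such a search returns high values even among unrelated genes, and no baseline was computed.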

How the data were processed

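The authors deposited, raw read counts for 25006 Ensembl gene IDs in each library, without normalization. The submitters' processing notes name cutadapt 1.13, STAR, HTSeq 0.6.1p1 and DESeq2 1.14.1 with build mm10. The kit marked strand, but the strand setting and annotation release of the counting are not given in the sources used here. Symbols, coordinates and exon lengths came from a GENCODE annotation of GRCm38, the same assembly as mm10, which held 24991 of the IDs. Deposited counts of 11 libraries were fitted in R 4.3.3 with edgeR 4.0.16 (filterByExpr, TMM scaling, quasi-likelihood test, 4 groups in 1 fit), with Benjamini-Hochberg adjustment over 14779 genes and a threshold of 0.05. CPM are TMM-scaled, and intervals cover 95%. Floors of 3 counts cover counting error only. Labels give 1 mouse per library, so p-values measure the spread between mice.

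Named genes were the 10 members, Vegfc and Lyz2, and for each member the 2 tested genes of most similar within-group pattern. From the vascular lists, some of the called genes with the largest log2 fold changes were named (at most 3 a direction). Not every such gene was named. Mcph1 and Gtpbp3, the sex genes and the cell type markers were added as checks. The members, although listed by symbol alone, and the gene lists were chosen with earlier results of these data known. Alternatives were DESeq2 1.42.0, its size factors, total counts, other filters, fits of only the groups compared, and omission of each library in turn. The fits were tested on simulated data. 1 gene of the apelin partner list is not reported here.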

Additional observations from a re-analysis of the deposited data

Results flagged for a closer look

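Cdh5 stood out because its values moved in opposite directions in the genotypes. Each MI control library lay below both naive control libraries, and each MI LysMCre library lay above all 3 naive LysMCre libraries. Cdh5 was picked by this pattern. Groups were apart for 72.1% of all genes tested in control and 64.3% in LysMCre mice. The share apart in opposite directions was not counted. LysMCre against control differed by -0.50 in naive and 0.49 in MI hearts. The MI LysMCre libraries, at 138.4 to 155.6 CPM, lay around the naive control ones, at 140.8 and 149.4 CPM. The interaction log2 fold change was 0.99 (SE 0.30, unadjusted p = 0.00712) and failed the correction over all genes (edgeR, Benjamini-Hochberg adjusted p = 0.543). Leaving out MI control M006 gave 1.28, and leaving out M40 of the same group gave 0.86, and without the library labelled naive LysMCre M149 it was 0.90. The opposite directions depend on the scaling: with total counts in place of TMM the change was -0.012 in control and 1.03 in LysMCre mice. The call in LysMCre mice was lost in 7 of 11 fits that left out 1 library, and the change in control mice (-0.46 with TMM) was not called.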

How the results depend on the processing

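Plvap and Angpt2 were called higher after MI in both genotypes under every alternative and every left-out library, with log2 fold changes over left-out libraries of 1.75 to 1.88 and 1.67 to 1.85 in control mice and of 2.70 to 2.96 and 0.98 to 1.60 in LysMCre mice. The number of members called in control mice was 2, against 5 with the DESeq2 Wald test (Pecam1, Tek and Tie1 in addition, all lower) and 2 to 6 over left-out libraries, the 6 without MI control M006. In LysMCre mice it was 5, against 3 with DESeq2 size factors, 4 with the DESeq2 Wald test, 6 with total counts (Pecam1 in addition) and 2 to 5 over left-out libraries. It was 2 without naive LysMCre M150, MI LysMCre M900 or MI LysMCre M913, and 3 without naive control M44 or M45, naive LysMCre M149 or M34, MI control M38 or MI LysMCre M35. Of 11 such fits, Vwf lost its call in 9, Cdh5 in 7 and Apln in 5. A fit without a naive control library leaves 1 mouse in that arm, which is assumed to vary like the other groups. The genotype and interaction comparisons called 0 members in every fit.

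With total counts the sign turned in control mice for Angpt1 (0.42), Apln (0.15), Aplnr (0.38) and Vwf (0.43) and in LysMCre mice for Tek (0.17) and Angpt1 (0.23). That scaling gave 6864 genes higher and 2145 lower in control and 7457 and 2423 in LysMCre mice, against 3882 and 3568, and 4432 and 4088, with TMM. Over left-out libraries the sign turned for these values, none of them called: after MI in control mice for Angpt1 (-0.13 to 0.041), Aplnr (-0.41 to 0.15) and Vwf (-0.20 to 0.070), and in LysMCre mice for Tie1 (-0.0028 to 0.38) and Aplnr (-0.080 to 0.25). Between genotypes in MI hearts it turned for Tek (-0.056 to 0.63), Angpt1 (-0.24 to 0.19) and Angpt2 (-0.58 to 0.0078), in naive hearts for Angpt2 (-0.11 to 0.36) and Aplnr (-0.072 to 0.18), and in the interaction for Aplnr (-0.032 to 0.56). The cause of these changes was not tested. No paired analysis was possible because the labels give no shared replicate numbers.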
